A study of Homo sapiens with 9 samples.

Results

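Autotaxin, the lysophosphatidic acid receptors and the phosphatases that end the signal were followed in HCCLM3 cells treated with quercetin, a plant flavonol. HCCLM3 is a human cell line from liver cancer, established for its strong tendency to metastasise. The set holds 8 genes of the 17492 in the authors' table, found by symbol: ENPP2, LPAR1, LPAR2, LPAR3, LPAR6, PLPP1, PLPP2 and PLPP3. These genes were chosen by name, with their TPM levels and their fold changes in all 3 contrasts already known. All 3 contrasts therefore count as used in the choice. The calls below describe the fit across all genes and are no independent evidence about the set. Of the 8 genes 7 passed the filter on low counts, and LPAR3 was too low to test.

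RNA-seq covered 9 libraries of unmodified (WT) HCCLM3 cells in 3 groups of 3: the vehicle DMSO, quercetin at 50 µM and quercetin at 100 µM. The sources used here do not state how long the cells were treated. They also do not state whether replicates were grown separately, and the p-values thus reflect the spread between these libraries alone, which may be technical. Levels are in TPM, a share of all transcripts that is scaled by transcript length, which allows genes to be compared with each other. Fold changes, standard errors (SE) and adjusted p-values are from edgeR's quasi-likelihood test on the counts with Benjamini-Hochberg adjustment over the 12832 genes tested, and a gene passed at an adjusted p under 0.05.

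Lysophosphatidic acid (LPA) is a small phospholipid that acts as an extracellular signal. Autotaxin, the secreted enzyme encoded by ENPP2, makes it by removing choline from lysophosphatidylcholine. LPA then binds G protein-coupled receptors, which drive calcium and growth signals, and lipid phosphate phosphatases of the PLPP family remove its phosphate group at the cell surface. In the liver the axis is known for its part in fibrosis and hepatocellular carcinoma.

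Libraries held between 20061031 and 21599661 estimated counts. DMSO replicate 1 and 100 µM replicate 3 each stood apart. The chi-square per gene was 84 and 86.2 between 100 µM replicate 3 and its partners, which gave 5.04 between themselves. For DMSO replicate 1 it was 27.7 and 27.5, where its partners gave 3.57. Calls for the 8 genes that change without them are given both ways. Both libraries were picked out in these same data, and the fit without them called many more genes in every comparison. Of the markers of the labelled cell type, KRT8 averaged 3889 TPM and HNF4A 14.9 TPM, while ALB ranged from 0.76 to 14.0 TPM, APOA1 from 0 to 0.50 TPM and EPCAM from 0.27 to 0.69 TPM. Markers of hepatocytes and liver cancer summed to 63.4 to 71.5 TPM at 50 µM and 66.4 to 100.3 at 100 µM, against 33.8 to 34.9 in DMSO, but they moved in both directions. Of 8 tested, 3 rose and 3 fell at 50 µM, and 4 rose and 1 fell at 100 µM. ALB, TF and FGB rose at both doses, and TTR at 100 µM. FGB varied widely between the 100 µM libraries (29.7 ± 22.5 TPM, SD), with a highest value of 55.7 TPM. APOB fell 4.94-fold at 50 µM (edgeR adjusted p = 0.000824) and 3.67-fold at 100 µM (edgeR adjusted p = 0.00035). SERPINA1 fell 5.47-fold (edgeR adjusted p = 0.0188) and HNF4A 1.68-fold (edgeR adjusted p = 0.032) at 50 µM. Counts were low for SERPINA1 (2 to 25 per library) and TTR (1 to 12 per library). Endothelial markers summed to 10.3 to 12.2 TPM at 50 µM and 11.0 to 14.2 at 100 µM, against 19.9 to 22.4 in DMSO, with PECAM1 the only marker of the 5 above 3.17 TPM. Leukocyte markers summed to 163 to 180.2 TPM at 50 µM and 254 to 377 at 100 µM, against 184 to 257 in DMSO. Nearly all of that sum was CD68, a lysosomal protein, with CD3E at or under 0.08 TPM in every library. Fibroblast markers summed to 66.2 to 73.6 TPM at 50 µM and 63.6 to 109.5 at 100 µM, against 57.7 to 87.4 in DMSO, mainly LUM, with COL1A1 and COL1A2 at or under 0.26 TPM. Adipocyte markers stayed at or under a summed 0.28 TPM. The part of these markers' sources in the results below was not tested.

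ENPP2, autotaxin, was lower at both doses of quercetin. Its transcript stood at 18.5, 27.7 and 33.4 TPM in DMSO replicates 1 to 3, at 8.37, 8 and 6.35 TPM at 50 µM, and at 7.58, 6.87 and 5.14 TPM at 100 µM. All quercetin libraries lay below all DMSO libraries, and the DMSO library nearest to them was replicate 1, which stands apart. At 50 µM ENPP2 fell 3.39-fold against DMSO (log2 fold change -1.76 ± 0.221 SE, edgeR adjusted p = 0.00442). At 100 µM it fell 3.93-fold (-1.97 ± 0.224 SE, edgeR adjusted p = 0.000853). The gene (gene 5168) spans 119516254 to 119673404 on chromosome 8 of GRCh38, and its counts ran from 165 to 966 per library.

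Between the doses ENPP2 averaged 6.53 ± 1.26 TPM at 100 µM and 7.57 ± 1.08 TPM at 50 µM (SD, n = 3 each). The libraries of these groups overlapped. The log2 fold change was -0.21 with a 95% interval from -0.72 to 0.29 and missed the threshold (edgeR adjusted p = 0.633). Without DMSO replicate 1 the fall against DMSO was -1.97 on the log2 scale at 50 µM and -2.18 at 100 µM. Leaving out both libraries that stand apart gave -1.98 and -2.07. In bulk RNA, fewer cells that express a gene and less RNA per cell cannot be told apart.

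**Figure D1:**
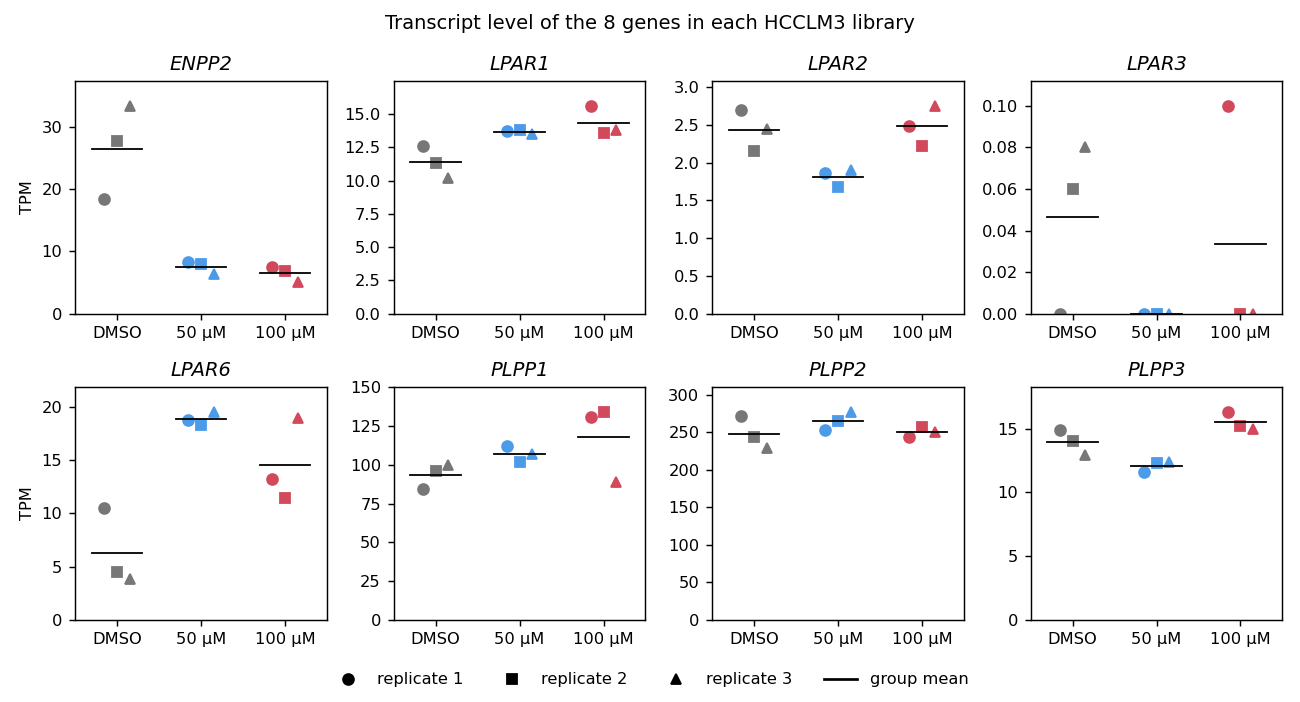
TPM of each gene in every library (y axis, a separate linear scale per gene, starting at 0) for DMSO, 50 µM and 100 µM quercetin, with 1 symbol per replicate number and a line at the group mean. ENPP2 lies at 5.14 to 8.37 TPM in the quercetin libraries and at 18.5 to 33.4 TPM in DMSO, LPAR6 runs the other way, and LPAR3 does not exceed 0.10 TPM.

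Of the receptors, LPAR6 was higher at both doses. LPAR6 (gene 10161) is a receptor of the P2Y-related branch that couples to G12/13 proteins, and inherited loss of it causes sparse hair. It stood at 10.5, 4.47 and 3.79 TPM in DMSO replicates 1 to 3, at 18.8, 18.3 and 19.5 TPM at 50 µM, and at 13.2, 11.4 and 18.9 TPM at 100 µM. The quercetin libraries lay above all DMSO libraries at either dose, but DMSO replicate 1 came within 1 TPM of the lowest library at 100 µM. LPAR6 rose 3.19-fold at 50 µM (log2 fold change 1.67 ± 0.351 SE, edgeR adjusted p = 0.0198) and 2.49-fold at 100 µM (1.32 ± 0.351 SE, edgeR adjusted p = 0.0278).

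Both libraries that stand apart bear on LPAR6. Without DMSO replicate 1 its log2 fold change was 2.27 at 50 µM (edgeR adjusted p = 0.00171) and 1.92 at 100 µM (edgeR adjusted p = 0.0021). Without 100 µM replicate 3, the highest library of its group, the change at 100 µM was 1.02 and did not pass (edgeR adjusted p = 0.0635), and without both it was 2.27 at 50 µM and 1.62 at 100 µM. The call at 50 µM was lost without DMSO replicate 2 (1.48, edgeR adjusted p = 0.0983) or 3 (1.44, edgeR adjusted p = 0.0911), or without any 1 library of 50 µM (1.68, 1.71 and 1.64, edgeR adjusted p = 0.0764, 0.065 and 0.0914). At 100 µM it was also lost without DMSO replicate 2 (edgeR adjusted p = 0.105) or 3 (1.08, edgeR adjusted p = 0.1) and in a fit of those groups alone (edgeR adjusted p = 0.0908). Between the doses the log2 fold change of LPAR6 was -0.36 (95% interval -1.10 to 0.39), which did not pass with all libraries (edgeR adjusted p = 0.576). It was -0.65 with 100 µM replicate 3 left out (edgeR adjusted p = 0.185), and passed at -0.65 when DMSO replicate 1 was left out too (edgeR adjusted p = 4.99e-06).

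LPAR6 spans 48389571 to 48444669 on chromosome 13 of GRCh38, inside the gene RB1, which GENCODE places on the opposite strand. The sources used here do not say whether counting used strand, so reads of RB1 and LPAR6 that cover the same bases could be assigned to either. RB1 had log2 fold changes of -0.17 at 50 µM (edgeR adjusted p = 0.642) and 0.061 at 100 µM (edgeR adjusted p = 0.878), so its own count did not pass in either comparison. RefSeq's promoter table (GRCh38.p14) has entries for 6 of the 8 genes. The 250 bases before the listed start are shown for LPAR6, the receptor that rose at both doses, and for PLPP3. PLPP3 is the phosphatase that passed between the doses with all libraries. Capitals mark matches on either strand to ACGTG or GCGTG, the cores of the hypoxia response element and, for the second, of the aryl hydrocarbon receptor element. The LPAR6 stretch is chr13:48413114-48413363 and that of PLPP3 chr1:56579564-56579813, both read 5′ to 3′ on the minus strand.
LPAR6: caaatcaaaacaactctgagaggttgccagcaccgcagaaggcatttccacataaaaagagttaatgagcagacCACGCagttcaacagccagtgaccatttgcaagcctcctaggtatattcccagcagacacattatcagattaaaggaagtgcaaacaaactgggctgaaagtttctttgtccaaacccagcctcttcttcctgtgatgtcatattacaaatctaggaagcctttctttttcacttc
PLPP3: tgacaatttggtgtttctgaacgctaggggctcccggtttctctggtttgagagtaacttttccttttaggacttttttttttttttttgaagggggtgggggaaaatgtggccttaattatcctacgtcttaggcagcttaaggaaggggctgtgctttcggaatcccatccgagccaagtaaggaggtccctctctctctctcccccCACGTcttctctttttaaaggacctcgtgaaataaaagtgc

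LPAR6 holds 1 match to GCGTG, on the strand opposite to the gene, 172 to 176 bases before the start, and none to ACGTG. PLPP3 holds 1 match to ACGTG, also on the opposite strand, 37 to 41 bases before the start. On either strand 32.2% of the 35116 stretches of the same length hold GCGTG and 18.5% hold ACGTG. At least 1 of these motifs is held by 43.2%. A match describes the letters only. The listed start of LPAR6 lies within RB1, and GENCODE has other LPAR6 starts that these bases do not cover.

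LPAR1 (gene 1902, chromosome 9, 110873252 to 111060349) is the most widely expressed receptor of the EDG branch. It stood at 12.6, 11.3 and 10.2 TPM in DMSO replicates 1 to 3, at 13.7, 13.8 and 13.5 TPM at 50 µM, and at 15.6, 13.6 and 13.8 TPM at 100 µM. Every quercetin library was above every DMSO library, by a small margin. At 100 µM LPAR1 rose 1.3-fold (log2 fold change 0.38 ± 0.0921 SE, edgeR adjusted p = 0.0185). At 50 µM its log2 fold change of 0.32 ± 0.0921 SE just missed the threshold (edgeR adjusted p = 0.0504), with a 95% interval from 0.12 to 0.53. It passed there without DMSO replicate 1 (0.39, edgeR adjusted p = 0.0227), without 100 µM replicate 3 (0.33, edgeR adjusted p = 0.0139) and with both left out (0.39, edgeR adjusted p = 0.000334). The call at 100 µM was lost without DMSO replicate 2 (0.39, edgeR adjusted p = 0.0692) or 3 (0.33, edgeR adjusted p = 0.0795) and without 100 µM replicate 1 (0.35, edgeR adjusted p = 0.0519), in a fit of those groups alone (edgeR adjusted p = 0.0749) and with limma on TPM (adjusted p = 0.0555 to 0.0677).

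The remaining receptors were scarce. LPAR2 (gene 9170, chromosome 19, 19623655 to 19628550), another EDG receptor, stood at 2.69, 2.15 and 2.45 TPM in DMSO, at 1.86, 1.68 and 1.90 TPM at 50 µM, and at 2.49, 2.22 and 2.75 TPM at 100 µM. Its libraries at 50 µM were the lowest of the 9, but its counts were only 38 to 60 per library. The log2 fold change was -0.37 at 50 µM (95% interval -0.83 to 0.086, edgeR adjusted p = 0.237) and 0.045 at 100 µM (95% interval -0.40 to 0.50, edgeR adjusted p = 0.891), so neither passed. LPAR3 (gene 23566, chromosome 1, 84811601 to 84893206) had estimated counts of 0, 2.07 and 2.64 in DMSO, 0 in every library at 50 µM, and 3.8, 0 and 0 at 100 µM. It was at 0 in 6 of 9 libraries, where up to 3 counts may go unseen, and at this depth no difference was detectable. Fitted without a filter it did not pass in any comparison (edgeR adjusted p = 0.293 at 50 µM, 0.914 at 100 µM and 0.456 between the doses).

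The mix of receptor transcripts differed between the groups. Summed over LPAR1, LPAR2, LPAR3 and LPAR6, receptors made up 20.1 ± 4.96 TPM in DMSO, 34.4 ± 0.551 TPM at 50 µM and 31.3 ± 4.08 TPM at 100 µM (SD, n = 3 each). LPAR1 gave 57.9% ± 7.76 of that sum in DMSO, 39.8% ± 1.15 at 50 µM and 46.2% ± 6.31 at 100 µM, while LPAR6 gave 29.5% ± 9.72, 54.9% ± 0.917 and 45.8% ± 6.56 in the same order (SD, n = 3 each). LPAR6 was below LPAR1 in every DMSO library, at 0.37 to 0.83 of its level. At 50 µM it was above LPAR1 in every library, at 1.32 to 1.45 times its level. At 100 µM replicates 1 and 2 were at 0.843 and 0.841, close to DMSO replicate 1 at 0.83, and replicate 3 was at 1.37. These shares follow from the levels above and were not tested separately.

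**Figure D2:**
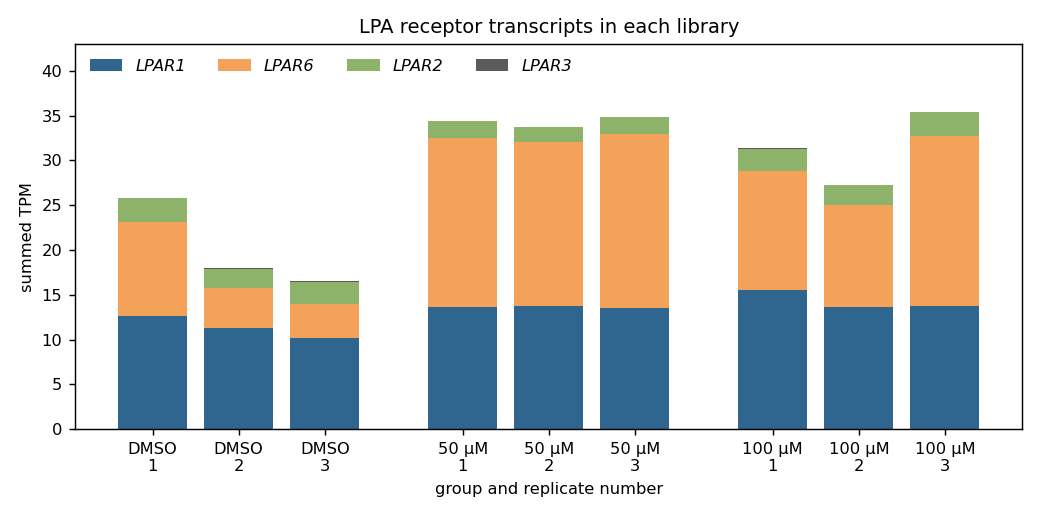
Summed TPM of the LPA receptor genes in each library (stacked bars from 0, y axis in TPM; groups and replicate numbers on the x axis). LPAR1 runs from 10.2 to 15.6 TPM, LPAR6 makes up 54.1% to 55.9% of the bar at 50 µM and 22.9% to 40.6% in DMSO, and LPAR3 is barely visible.

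The phosphatases PLPP2 and PLPP1 were the most abundant of the 8 genes in each group, while PLPP3 was closer to LPAR1. PLPP2 (gene 8612, chromosome 19, 281043 to 291413) had a higher mean level than 96.5% of all genes in the table and PLPP1 (gene 8611, chromosome 5, 55424850 to 55535075) than 90.5%, against 37.7% for LPAR2 and 56.4% to 57.3% for ENPP2, LPAR1, LPAR6 and PLPP3. PLPP2 stood at 272, 244 and 229 TPM in DMSO, at 253, 265 and 277 TPM at 50 µM, and at 244, 257 and 250.1 TPM at 100 µM. These groups overlapped. Its log2 fold change was 0.15 at 50 µM (95% interval -0.036 to 0.34, edgeR adjusted p = 0.24) and 0.08 at 100 µM (95% interval -0.11 to 0.27, edgeR adjusted p = 0.524), so neither passed. With both libraries that stand apart left out it was 0.21 at 50 µM and passed (edgeR adjusted p = 0.0044).

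PLPP1 stood at 84.4, 96.0 and 100.0 TPM in DMSO, at 112, 102 and 107 TPM at 50 µM, and at 131, 134 and 89.2 TPM at 100 µM. At 100 µM replicates 1 and 2 were the highest of the 9 libraries and replicate 3, which stands apart, lay among the DMSO values. With all libraries the log2 fold change at 100 µM was 0.39 ± 0.13 SE and did not pass with edgeR (adjusted p = 0.0581). It passed with DESeq2 run here (adjusted p = 0.0344), but not in the authors' deposited table (DESeq2 q = 0.137). Without 100 µM replicate 3 the log2 fold change fitted here was 0.53 and passed (edgeR adjusted p = 0.00147). With both libraries that stand apart left out it was 0.45 (edgeR adjusted p = 3.99e-06). At 50 µM it was 0.25 with all libraries (95% interval -0.043 to 0.54, edgeR adjusted p = 0.215), where every 50 µM library lay above every DMSO library. There it passed without 100 µM replicate 3 (0.26, edgeR adjusted p = 0.0301) and with both left out (0.17, edgeR adjusted p = 0.0264). Between the doses it was 0.14 with all libraries (edgeR adjusted p = 0.563), 0.27 without 100 µM replicate 3 (edgeR adjusted p = 0.0432) and 0.28 with both left out (edgeR adjusted p = 0.000399). PLPP1 overlaps MTREX on the opposite strand, an RNA helicase gene at a mean of 44.7 TPM whose log2 fold changes of -0.17 and -0.35 at 50 and 100 µM did not pass (edgeR adjusted p = 0.442 and 0.123).

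PLPP3 (gene 8613, chromosome 1, 56490905 to 56579563), the family member known for degrading LPA in vessels, differed between the doses. It stood at 14.9, 14.0 and 12.9 TPM in DMSO, at 11.6, 12.3 and 12.4 TPM at 50 µM, and at 16.3, 15.2 and 15.0 TPM at 100 µM. The libraries at 100 µM lay above the DMSO libraries, and those at 50 µM lay below them. At 100 µM PLPP3 was 1.29-fold higher than at 50 µM (log2 fold change 0.37 ± 0.0838 SE, edgeR adjusted p = 0.0442). Against DMSO the log2 fold changes of -0.15 at 50 µM (edgeR adjusted p = 0.25) and 0.22 at 100 µM (edgeR adjusted p = 0.0919) did not pass. With both libraries that stand apart left out, the change at 100 µM was 0.24 and passed (edgeR adjusted p = 0.0263). The call between the doses was lost without DMSO replicate 2 (edgeR adjusted p = 0.0805) or 3 (0.072), any library at 50 µM (0.133 to 0.181), or 100 µM replicate 1 (0.112) or 2 (0.094), at log2 fold changes of 0.34 to 0.40. It was also lost with the replicate number as a block (edgeR adjusted p = 0.123), with no filter (0.0685), in a fit of those groups alone (0.078) and with limma on TPM (0.0756 to 0.0849). With both libraries that stand apart left out it held (0.35, edgeR adjusted p = 0.000809). PLPP3 also passed between the doses with DESeq2 run here.

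**Figure D3:**
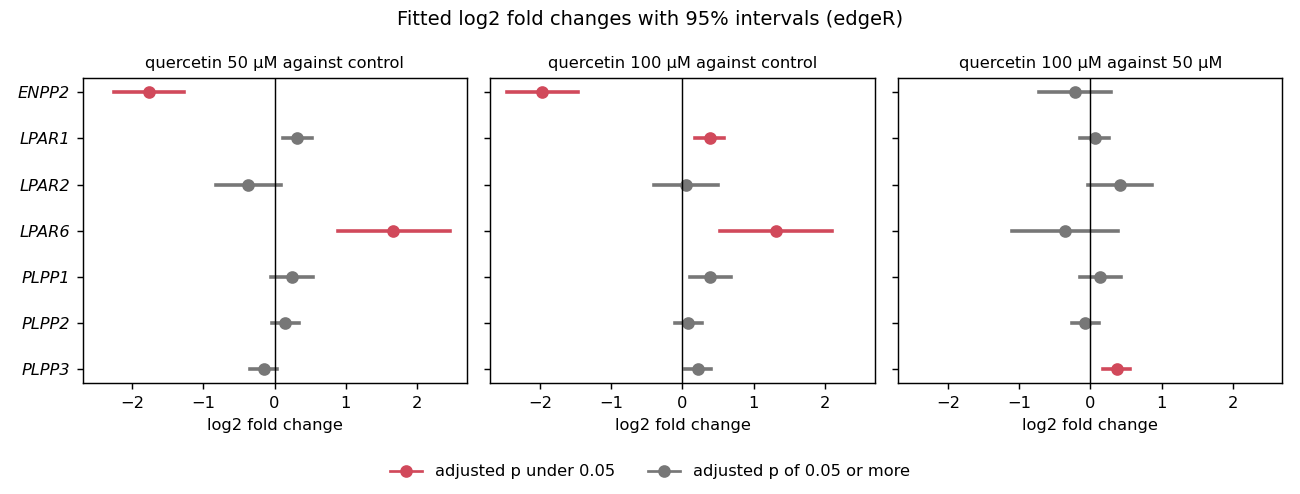
Log2 fold change of the 7 tested genes (x axis; points, first-named group over the second) with 95% intervals (lines) in the 3 comparisons, coloured by whether the adjusted p was under 0.05. ENPP2 lies at -1.76 and -1.97 against DMSO, LPAR6 at 1.67 and 1.32, and PLPP3 alone passed between the doses.

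Counted over the set, 1 of the 7 tested genes rose and 1 fell at 50 µM against DMSO, where 11.6% of all tested genes passed, 5.28% of them upward and 6.31% downward. At 100 µM 2 rose and 1 fell, where 21% of all tested genes passed, 10.7% upward and 10.3% downward. Between the doses 1 was higher at 100 µM, where 4.15% passed, 2.25% upward and 1.89% downward. Of the 7 genes 6 at 50 µM and 4 at 100 µM had no overlap with the DMSO libraries, against 49% and 35.9% of all tested genes by CPM. Between the doses 2 had no overlap, against 27.7%. The same DMSO libraries serve both dose comparisons. The median log2 fold change of the 7 genes was 0.15 at 50 µM, 0.22 at 100 µM and 0.06 between the doses, against 0.0033, 0.00087 and 0.012 over all tested genes. Since all 3 contrasts count as used in choosing the set, nothing is read from these shares. With both libraries that stand apart left out, 5, 5 and 3 of the 7 genes passed in these comparisons. That fit called 7398, 6272 and 6105 genes in all, where the fit of all libraries called 1488, 2692 and 532 of 12832. Both libraries were picked out in these same data, so nothing is read from the calls gained.

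The order of the genes by level differed between the groups in the places of ENPP2, LPAR6, PLPP3 and LPAR1. In DMSO it ran PLPP2, PLPP1, ENPP2, PLPP3, LPAR1, LPAR6, LPAR2 and LPAR3, with LPAR1 and LPAR6 the neighbours whose libraries overlapped. At 50 µM it ran PLPP2, PLPP1, LPAR6, LPAR1, PLPP3, ENPP2, LPAR2 and LPAR3, with no overlap between neighbours. At 100 µM it ran PLPP2, PLPP1, PLPP3, LPAR6, LPAR1, ENPP2, LPAR2 and LPAR3, and the libraries of LPAR6 overlapped those of PLPP3 and of LPAR1.

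In the authors' deposited table, whose p-values came from DESeq2, the log2 fold changes of ENPP2 were -1.77 at 50 µM (q = 1.72e-15) and -1.98 at 100 µM (q = 9.2e-12). For LPAR6 the authors' deposited table gives 1.68 (q = 2.17e-07) and 1.32 (q = 0.0139). LPAR1 stood there at 0.32 at 50 µM (q = 0.0322) and 0.38 at 100 µM (q = 0.0549), so the authors' deposited table passes it at 50 µM and not at 100 µM. DESeq2 run here on the same counts passed LPAR1 at both doses (adjusted p = 0.0208 and 0.00343). With edgeR it passed at 50 µM with DESeq2's size factors (adjusted p = 0.0496) and in a fit of those groups alone (adjusted p = 0.0225).

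**Figure D4:**
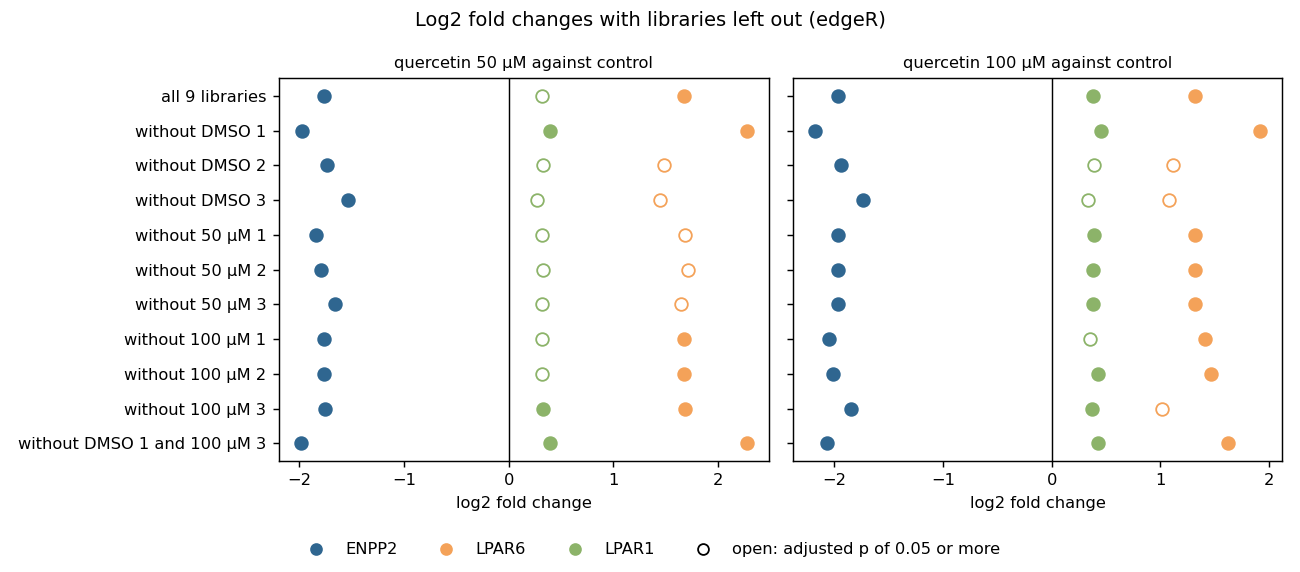
Log2 fold change against DMSO (x axis) of ENPP2, LPAR6 and LPAR1 with all 9 libraries and with libraries left out (y axis), at 50 µM on the left and 100 µM on the right; filled points had an edgeR adjusted p under 0.05. ENPP2 stayed between -1.53 and -2.18 with every point filled, while LPAR6 ran from 1.02 to 2.27 with several points open.

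Genes around the axis were read from lists of related genes, beside the shares of all tested genes given above. Those shares were 11.6% at 50 µM, 21% at 100 µM and 4.15% between the doses. Among enzymes that can feed LPA production, 10 were tested. At 50 µM 1 passed: PLA2G4A, the cytosolic phospholipase A2, rose 1.79-fold to 22.4 ± 0.82 TPM, against 13 ± 1.76 TPM in DMSO (edgeR adjusted p = 0.0363). At 100 µM 2 passed, both upward. These were PLA2G6, a calcium-independent phospholipase A2 (2.27-fold, to 1.46 ± 0.251 TPM against 0.673 ± 0.129 TPM in DMSO, edgeR adjusted p = 0.0193), and PLD2, a phospholipase D (1.35-fold, edgeR adjusted p = 0.0395). Between the doses 0 passed with edgeR, DESeq2 or limma, and 3 had an unadjusted p under 0.05 with edgeR. The list's median log2 fold change was 0.24 at 50 µM and 0.36 at 100 µM.

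Enzymes that acylate glycerol phosphate and LPA, or remove LPA, changed in both directions. Of 22 tested, 2 rose and 2 fell at 50 µM, 3 rose and 2 fell at 100 µM, and 1 was higher at 100 than at 50 µM, with medians of 0.04, 0.13 and 0.083. Over all tested genes 11.6%, 21% and 4.15% passed in these comparisons, so nothing is read from the counts. GPAT3, which makes LPA inside the cell by acylating glycerol 3-phosphate, fell 2-fold at 50 µM (56.5 ± 4.5 TPM, against 118 ± 18.3 TPM in DMSO, edgeR adjusted p = 0.00685) and 2.12-fold at 100 µM (53.9 ± 11.4 TPM, edgeR adjusted p = 0.0016). LPCAT3, which acylates lysophosphatidylcholine, the substrate of autotaxin, rose 1.58-fold at 50 µM (39.8 ± 1.06 TPM, against 26.3 ± 3.84 TPM in DMSO, edgeR adjusted p = 0.0161) and 1.86-fold at 100 µM (47.0 ± 8.78 TPM, edgeR adjusted p = 0.00193). The lysophospholipid acyltransferase MBOAT1 rose 2.12-fold at 50 µM (edgeR adjusted p = 0.0244) and AGPAT4 1.81-fold at 100 µM (edgeR adjusted p = 0.0239). AGPAT2, which turns LPA into phosphatidic acid, was 1.39-fold higher at 100 than at 50 µM (edgeR adjusted p = 0.0391).

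Close relatives of the 8 genes mostly did not pass. Nor did most tested genes, of which 11.6%, 21% and 4.15% passed in the 3 comparisons. Of the other ENPP genes 2 of 5 were tested (ENPP1 and ENPP4) and 0 passed with edgeR. ENPP1 had an unadjusted p under 0.05 with edgeR at 50 µM and between the doses, and passed with DESeq2 at 50 µM. Of the other PLPP genes and related phosphatases 5 of 10 were tested, and 0 passed with edgeR, DESeq2 or limma in the 3 comparisons or had an unadjusted edgeR p under 0.05. LPAR4 (counts of 0 to 3 per library) and LPAR5 (2 to 19.2) were too low to test. GPR35 and P2RY10, proposed as receptors of LPA or its relatives, were tested and did not pass with edgeR, where GPR35 had an unadjusted p under 0.05 at 50 µM and between the doses, and passed between the doses with DESeq2. Of the sphingosine 1-phosphate receptors, the closest kin of LPAR1 outside the LPA receptors, 1 of 4 tested rose at both doses. This was S1PR5, named after its values were seen, at 0.88 ± 0.0265 TPM at 50 µM and 0.477 ± 0.0839 TPM at 100 µM, against 0.193 ± 0.111 TPM in DMSO (edgeR adjusted p = 0.012 and 0.0433). S1PR5 had only 2 to 22 counts per library, with a mean under the 1 CPM set for naming genes. With DESeq2 it passed at 50 µM and not at 100 µM.

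The genes most like ENPP2 and LPAR6 over the 9 libraries were sought among 10464 tested genes with at least 5 CPM, by Pearson's r of log2 CPM. For ENPP2 these were NECAP1 (r = 0.998), GPAT3 (0.991) and TSR1 (0.989). For LPAR6 they were the epithelial sodium channel subunit SCNN1A (0.995), the dehydrogenase BDH2 (0.994) and SMAD6, an inhibitor of BMP signalling (0.991). SCNN1A stood at 7.05, 3.35 and 2.82 TPM in DMSO, 10.2, 11.9 and 11.1 TPM at 50 µM, and 7.74, 7.37 and 10.5 TPM at 100 µM, so that DMSO replicate 1 and 100 µM replicate 3 departed from their groups as they did for LPAR6. In all 464 genes had an r above 0.9 with ENPP2 and 455 with LPAR6. The libraries fall into 3 groups and share these departures, so high values are common and describe a shared pattern only.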

How the data were processed

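Messenger RNA of 9 HCCLM3 samples was bound to oligo(dT) beads, and libraries then had a DSN treatment, per the labels' protocols, which speak of tissue although the samples are a cell line. The authors deposited 1 table with an expected count and a TPM value for each gene and library. It also holds the log2 fold changes and q-values of their own DESeq2 comparisons, per the file headers. HISAT2 2.0.4, Bowtie2 2.2.5, RSEM 1.2.12 and GRCh38.p13 are named in the submitters' processing notes, with no roles. 18 further columns of per-library values were not used.

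Expected counts were rounded, filtered with filterByExpr (minimum count 10, total 15, share 0.7; 12832 of 17492 genes kept), scaled by TMM and tested in 1 fit of all 9 libraries (edgeR 4.0.16, robust quasi-likelihood; R 4.3.3). Standard errors were derived from F as |log2 fold change| / √F. The alternatives used DESeq2 1.42.0, and limma 3.58.1 on log2(TPM + 1) and log2(TPM + 0.1). The scripts were tested on simulated data. There 33.0% to 38.4% of genes changed 1.5-fold passed, and 62.2% to 73.0% of those changed 2-fold. Genes that did not pass may thus still have changed. The simulation changed fewer genes than passed here in any comparison. Its noise was drawn gene by gene, so no library stood apart, and its rates may not hold for these data. Of 15876 genes 30.5% have another strand in the deposited table than in GENCODE, so GENCODE's strand is used.

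The members and lists were chosen with earlier results of these data known. From each list, up to 3 passing genes with the largest change and at least 1 CPM were named per comparison. Some listed genes are not analysed here, and 1 list, of genes below the receptors, is not reported here. The replicate numbers are not said to pair the samples, and the main fit does not use them.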

Additional observations from a re-analysis of the deposited data

Results flagged for a closer look

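PLPP3 is singled out because it passed in the direct comparison of the doses. Its log2 fold change at 100 against 50 µM was 0.37, with an edgeR adjusted p of 0.0442. The call was lost in 13 of 18 alternatives, with edgeR adjusted p up to 0.181, so the difference is not firm. PLPP3 did pass with DESeq2 run here and in the authors' deposited table (log2 fold change 0.36, DESeq2 q = 0.0285). This contrast also counts as used in choosing the set. Against DMSO its log2 fold changes were 0.22 at 100 µM and -0.15 at 50 µM, and neither passed with all libraries.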

How the results depend on the processing

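Over 18 alternatives each, ENPP2 passed against DMSO in every one at both doses, with log2 fold changes of -1.98 to -1.53 at 50 µM and -2.18 to -1.74 at 100 µM. Of 378 alternative values for the 7 genes 331 kept direction and side of the threshold, 29 lost and 16 gained a call, and 2 reversed: LPAR2 at 100 µM, 0.045 with all libraries, ranged from -0.058 to 0.14 with single libraries left out. Of the set, 2, 3 and 1 genes passed at 50 µM, at 100 µM and between the doses. With single libraries left out 1 to 4, 1 to 3 and 0 to 2 passed, and 5, 5 and 3 without both libraries that stand apart. At 100 µM 1 passed in a fit of those groups alone. Between the doses 0 passed with no filter, in the fit of those groups alone, with the replicate block, and with limma on TPM at either pseudocount or without a filter; 1 to 2 had an unadjusted p under 0.05 in these. Over all genes the calls numbered 1488, 2692 and 532. DESeq2 called 2531 at 50 µM and 1352 between the doses, fits of the groups compared alone 4269, 1024 and 251, and limma on TPM without a filter 748 at 50 µM and 233 between the doses. Single libraries left out gave 90 to 4739, 1055 to 3856 and 43 to 3561, and both left out gave 7398, 6272 and 6105. The cause was not tested.

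With the replicate block, all genes called numbered 427, 1672 and 109, and ENPP2, LPAR6 and LPAR1 kept their calls (edgeR adjusted p = 0.0265 and 0.0488 for the first pair at 50 µM, and 0.00632, 0.0467 and 0.0432 at 100 µM). Same-numbered libraries had correlations of -0.464 to 0.276 in their deviations from the group means. The libraries that stand apart, which differ in number, gave 0.533. Such departures can hide a smaller effect of pairing, so this check cannot decide whether the numbers pair samples. Depth limits LPAR2 and LPAR3.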
